A study of Cichorium intybus with 5 samples.

Results

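Enzymes of primary and isoprenoid metabolism were followed in leaf explants of chicory (Cichorium intybus), namely HMG-CoA reductase (clone E011F11), myo-inositol-1-phosphate synthase (clone E017B10) and glyceraldehyde-3-phosphate dehydrogenase (GAPDH, clone E002A3). They were chosen by clone name and are 3 of the 2112 probes of a cDNA microarray, each probe being a PCR fragment of 1 cDNA clone. All 3 have a value in each of the 5 comparisons of the series, as do 467 probes in all. The gene names come from the study's annotation, which gives as closest Arabidopsis loci AT1G76490, AT4G39800 and AT1G79530 in the same order.

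HMG-CoA reductase makes mevalonate from HMG-CoA and is regarded as the main control point of the cytosolic isoprenoid pathway, which leads to sterols and, in chicory, to the bitter sesquiterpene lactones. Myo-inositol-1-phosphate synthase takes glucose 6-phosphate into inositol, the precursor of inositol phosphates, membrane phosphoinositides and some cell wall sugars. GAPDH oxidises a triose phosphate in glycolysis and is often taken as a housekeeping enzyme.

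K59 is a genotype that forms somatic embryos from cultured leaves (somatic embryogenesis, SE), and C15 is a non-embryogenic genotype obtained from it by selfing. Explants were cut from in vitro plantlets 2 months old, with 12 plants per replica. For the induced samples (d4), explants of K59 or C15 were shaken in the dark for 4 days at 35°C in 20 mL of SE induction medium, and they were compared with uncultured explants of the same genotype (d0). In the β-Glc Y experiment, d4 explants whose medium contained 250 µM β-Glc Y (Y+) were compared with d4 explants without it (Y-), again within each genotype. β-Glc Y is the β-glucosyl Yariv reagent, a synthetic phenylglycoside that binds arabinogalactan-proteins of the cell surface. The last comparison set K59 d0 against C15 d0. Each genotype is a single line, and every sample is a whole explant with all its cell types.

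Each value is a log2 ratio of the first RNA named over the second, so that 1 is a doubling of the signal ratio and -1 a halving. The design states 3 biological replicates, but a single value per comparison was deposited for each probe. No spread between replicates, error or p-value could therefore be given, and no difference below was tested. The paper also measured HMG-CoA reductase by quantitative RT-PCR with biological repetitions. It reports no significant difference between RT-PCR and array, and its RT-PCR data were not used here. The threshold is that of the methods, a log2 ratio that reaches 1 or, for lower signal, -1. The paper took the clones from subtractive libraries of K59 and C15, so the probes were pre-selected and do not sample all genes. It also counts fewer unique genes than there are probes, so a gene can have more than 1. Shares and ranks over all probes below describe this array only. As a measure of the width of each distribution, the median absolute deviation of all probes, scaled to match an SD, was 1.16 in K59 d4 vs. K59 d0, but 0.30 in C15 d4 vs. C15 d0, 0.22 and 0.21 for β-Glc Y in K59 and C15, and 0.18 at d0.

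**Figure D1:**
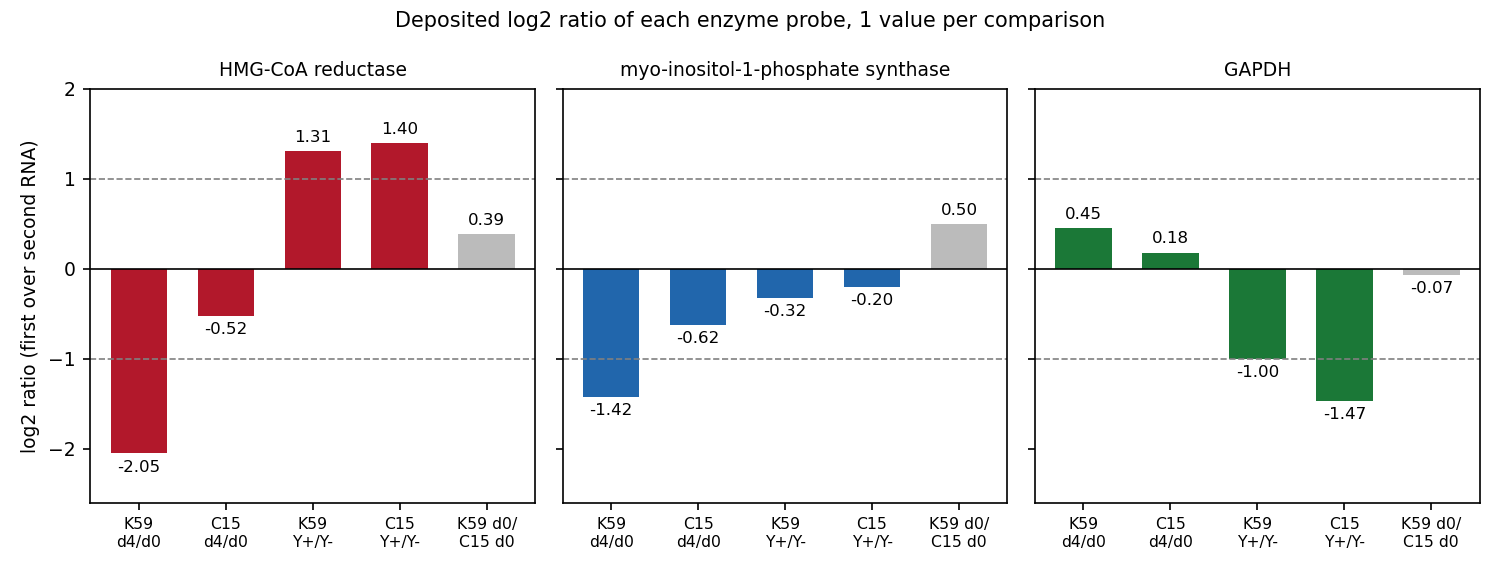
Deposited log2 ratio (y axis, first over second RNA) of HMG-CoA reductase, myo-inositol-1-phosphate synthase and GAPDH in the 5 comparisons (x axis), with 1 value per bar and dashed lines at 1 and -1. HMG-CoA reductase runs from -2.05 in induced K59 to 1.40 with β-Glc Y in C15, whereas GAPDH stays near 0 after induction and reaches -1.47 with β-Glc Y in C15; grey bars mark the d0 comparison, whose direction is not settled.

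After 4 days of SE induction, HMG-CoA reductase had a log2 ratio of -2.05 in K59, a signal 4.14-fold lower in d4 than in d0 explants. In C15 its log2 ratio was -0.52, or 1.43-fold lower in d4. The value passed the threshold in K59 and stayed within it in C15. At or below -1 lay 23.4% of the 867 probes measured in K59 and 8.3% of the 1169 measured in C15. Such a decrease was thus common in K59 among the probes of this array. In whole explants, fewer cells of a type and less RNA per cell cannot be told apart.

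The K59 minus C15 difference of the log2 ratios of HMG-CoA reductase was -1.53. This gap has to be read against the wider range of the K59 comparison. In K59, 97 probes (11.2%) had a lower value than HMG-CoA reductase, and in C15 174 probes (14.9%). These ranks depended on the setting. The plate of a clone was inferred here from the start of its name. A plate median can also hold responses that its clones share, and this was not tested. With the plate median subtracted they were 6.0% in K59 and 12.3% in C15, and among the probes with all 5 values 15.2% in K59 and 23.8% in C15. Divided by this width for its own comparison, its value was -1.77 in K59 and -1.75 in C15. Another 63 probes had a K59 log2 ratio within 0.5 of that of HMG-CoA reductase, and their C15 log2 ratios ran between -1.96 and 1.10 with a median of -0.61. Of these, 38 were lower and 25 higher in C15 than HMG-CoA reductase. Its C15 value was thus in the middle of those of probes with a like decrease in K59.

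Myo-inositol-1-phosphate synthase was also lower after induction. In K59 its log2 ratio was -1.42, or 2.68-fold lower in d4, while C15 gave -0.62, or 1.54-fold lower. The K59 value passed the threshold, while that of C15 did not. The order of the genotypes depended on the scale. On the log2 scale the K59 minus C15 difference was -0.80. In units of the width of each comparison it was -1.23 in K59 and -2.09 in C15, and fewer probes lay below it in C15 (146, or 12.5%) than in K59 (162, or 18.7%). Among 97 other probes with a K59 log2 ratio within 0.5 of its own, the median in C15 was -0.34, and 27 were lower in C15 than the synthase. The clones of its plate had a median above 0, and relative to the plate median the synthase stood at -2.16 in K59 and -0.75 for C15. The order of the ranks then turned, with 9.0% of probes below it in K59 and 11.7% in C15.

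Induction left GAPDH at 0.45 in K59 explants and at 0.18 in those of C15. Both values lay within the threshold and inside the bulk of the probes, with 332 of 867 probes higher in K59 and 349 of 1169 higher in C15. Of the 3 enzymes it was the one whose induction values were above 0.

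A second clone, which the study names cytosolic GAPDH (E005C9, closest locus AT3G04120), gave a different picture. Induced K59 explants gave a log2 ratio of -1.28 for this clone, and induced C15 explants -0.62, against 0.45 and 0.18 for clone E002A3. Its β-Glc Y log2 ratios were near 0, at -0.07 for K59 and -0.13 for C15. In induced K59 the 2 clones named GAPDH thus lay on opposite sides of 0, and only the cytosolic one was past the threshold. Their closest loci differ (AT1G79530 for clone E002A3), so the clones need not measure the same gene.

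**Figure D2:**
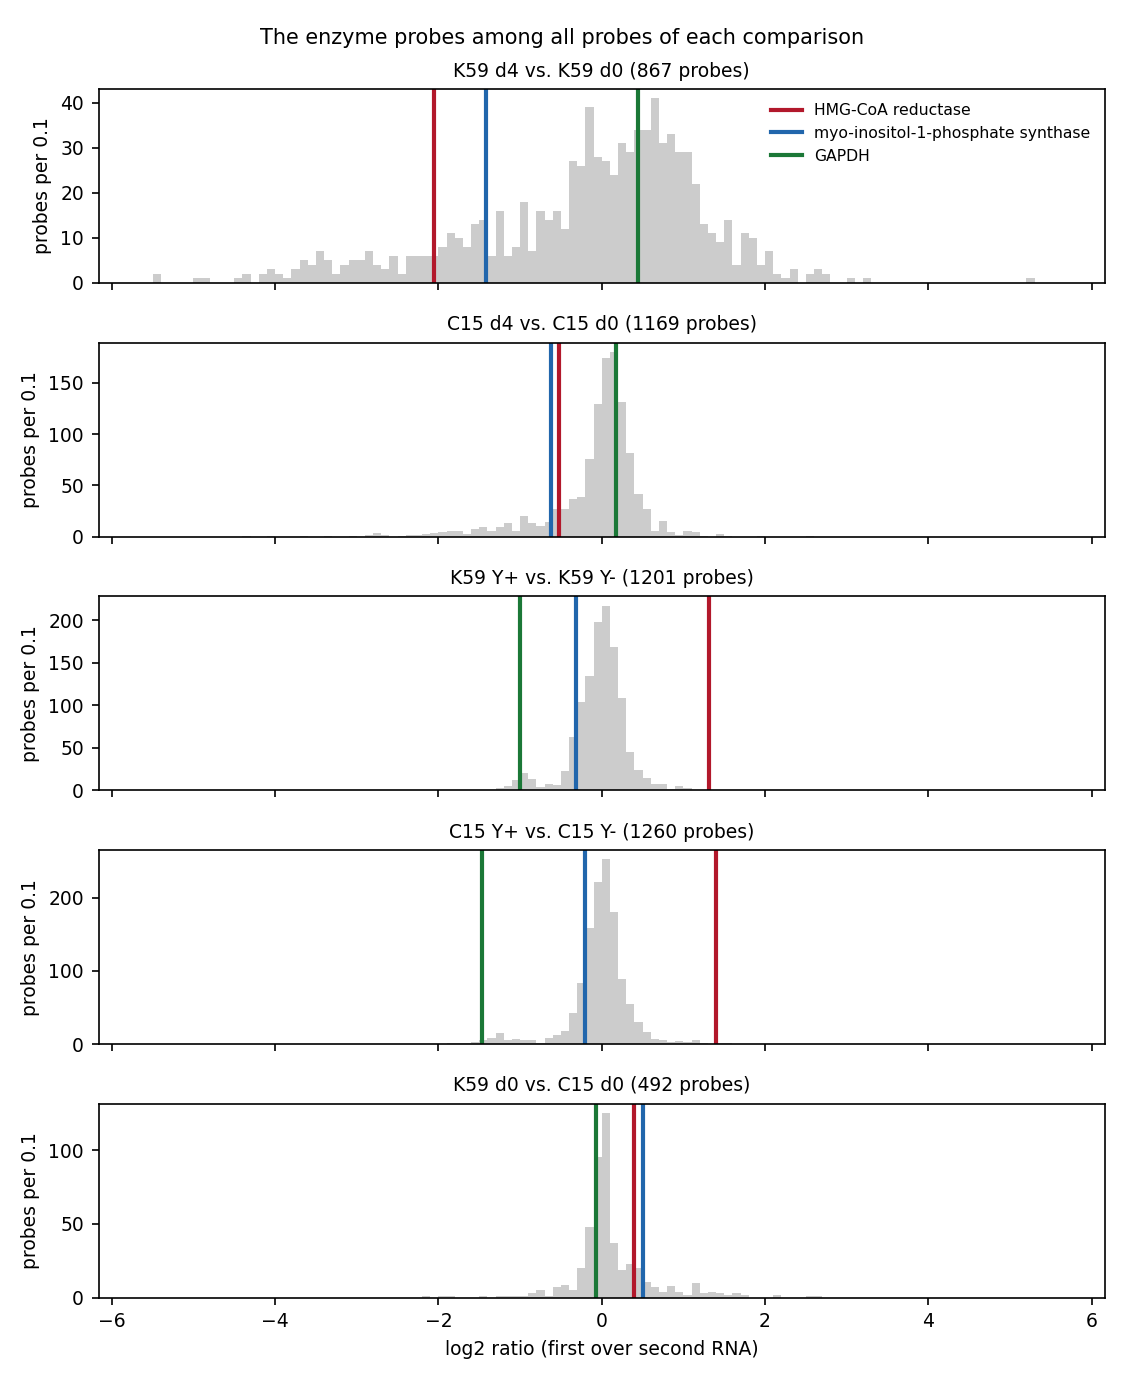
Number of probes (y axis, in steps of 0.1) by log2 ratio (x axis, first over second RNA) in each of the 5 comparisons, with vertical lines for the 3 enzymes. HMG-CoA reductase lies in the broad lower arm of the K59 induction values but at the upper end of both β-Glc Y distributions. GAPDH lies in the lower tail of both β-Glc Y distributions.

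β-Glc Y went with more HMG-CoA reductase signal in both genotypes. The log2 ratio was 1.31 for K59, 2.48-fold more in Y+ than in Y- explants, and 1.40 for C15, 2.64-fold more. The values of the genotypes differed by 0.09. At least 1 was reached by 0.583% of the 1201 probes in K59 and by 1.03% of the 1260 in C15. In each genotype 1 probe was higher, the extracellular dermal glycoprotein precursor (E010H12, a secreted protein), with 1.54 in K59 and 1.56 in C15. The next probe below was the 20S proteasome alpha subunit B in K59 (N102E10, 1.25) and a protein kinase in C15 (E001C5, 1.25). Both genotypes reached 1 for 6 of the 1044 probes measured in both, or 0.575%.

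GAPDH had the opposite sign. Its log2 ratio for Y+ over Y- was -1.0 in K59 explants and -1.47 in C15 explants. This is 2-fold less signal in Y+ than in Y- explants of K59 and 2.77-fold less in those of C15. At or below -1 lay 2% of the probes in K59 and 3.81% in C15. The K59 value was exactly at the threshold as deposited, with 21 probes lower, and in C15 8 probes were lower. Both genotypes were at or below -1 for 18 of the 1044 probes, or 1.72%. The log2 ratio of GAPDH was higher in K59 than in C15 by 0.47, that is, the decrease was smaller in K59. Among 71 other probes with a K59 value within 0.5 of that of GAPDH, the C15 log2 ratios had a median of -1.20, and 63 were higher than that of GAPDH.

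Myo-inositol-1-phosphate synthase stayed within the threshold with β-Glc Y, where K59 gave -0.32 and C15 -0.20. Its clone plate, E017, was low as a whole in these comparisons, with a median of -0.25 over 93 probes in K59 and -0.17 over 91 in C15. After subtraction of the plate median the synthase was left with -0.07 for K59 and -0.03 for C15. For HMG-CoA reductase the plate made little difference (1.27 in K59 and 1.37 in C15), and it was the only probe of the 77 measured on its plate in K59, and of the 67 in C15, to reach 1. On the plate of GAPDH, 4 of 59 probes in K59 and 8 of 70 in C15 were at or below -1. Subtraction of the plate median put GAPDH at -0.97 in K59, short of the threshold, and at -1.39 for C15. The part of the plates in these values was not tested.

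**Figure D3:**
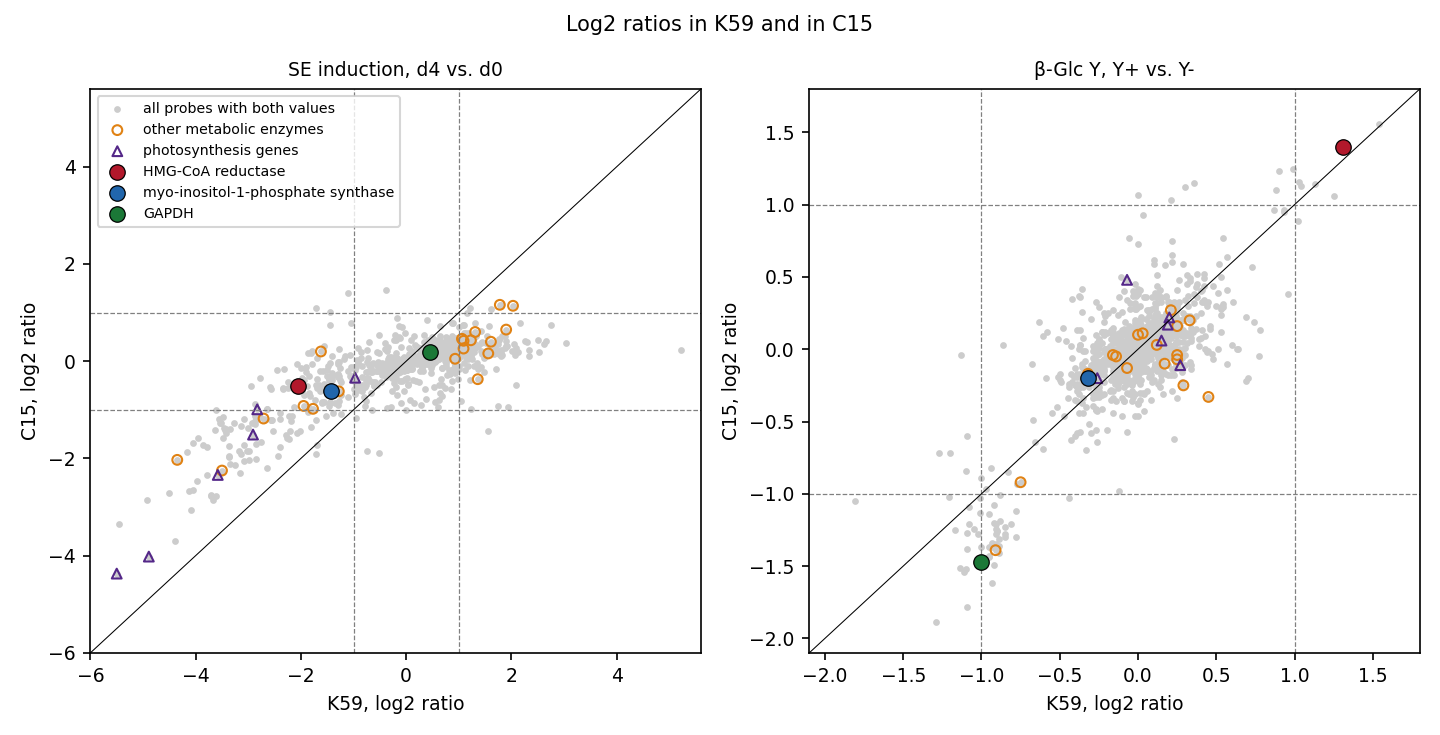
Log2 ratio in K59 (x axis) against that in C15 (y axis) for SE induction (left) and β-Glc Y (right), with 1 point per probe, dashed lines at 1 and -1 and a solid line of equal values. HMG-CoA reductase (-2.05 and -0.52 after induction) lies among many probes of lower value in K59 on the left and near the upper corner on the right. GAPDH (-1.0 and -1.47) is among the lower values on the right.

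The induction and β-Glc Y ratios of a genotype share the condition d4 without reagent, so their sum gives the signal of Y+ d4 explants over d0, provided that the d4 RNA was the same in both. For HMG-CoA reductase this sum was -0.74 in K59 and 0.88 in C15. The Y+ explants of K59 thus remained 1.67-fold below d0, and those of C15 were 1.84-fold above d0. Only 30 of 1070 probes had a higher sum in C15, whereas 186 of 769 had a lower one in K59. For GAPDH the sum was -0.55 in K59 and -1.29 in C15, with the β-Glc Y ratio the larger term in size. For myo-inositol-1-phosphate synthase it was -1.74 in K59 and -0.82 in C15, with the induction ratio the larger term.

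In the comparison of K59 d0 with C15 d0, none of the 3 enzymes passed the threshold, against 8.13% of the 492 probes. Myo-inositol-1-phosphate synthase had a log2 ratio of 0.50, HMG-CoA reductase 0.39 and GAPDH -0.07. As labelled, the synthase and HMG-CoA reductase were higher in K59. The direction rests on the labels alone and is not settled. Across probes, the d0 values had r = -0.52 with C15 induction (491 probes), although C15 d0 is the second RNA of both ratios, which by itself would give a positive r. With K59 induction r was -0.54 (486 probes), the sign that the shared K59 d0 group would give with the ratio as labelled. With the sign turned, the values would be -0.50, -0.39 and 0.07.

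The probes most like each enzyme were found by the Euclidean distance of the log2 ratios over the 4 induction and β-Glc Y comparisons, among the 736 probes with all 4 values. HMG-CoA reductase had no close neighbour. The nearest probe, the unnamed clone N103E4, was at a distance of 1.43, compared with a median nearest distance of 0.16 over all probes, and 1 probe was more isolated. It was followed by ERD15, a dehydration-induced protein (N101H8, 1.59), and the ribosomal protein L10 (E001G12, 1.6). These had a like decrease in K59 (-1.6, -1.81 and -1.79) but smaller β-Glc Y values, 0.53, 0.74 and 0.26 in K59, with 0.29, 0.19 and 0.48 for C15. The next probe was S-adenosylmethionine synthetase (E008B1), which makes the methyl donor of the cell.

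The nearest probe to myo-inositol-1-phosphate synthase was the unnamed clone E010H5, at 0.26. It was followed by cytosolic GAPDH (0.29) and the unnamed clone E011F5 (0.33), and among named genes by a glutathione S-transferase (N104C2, 0.36) and beta tubulin (E011C12, 0.38). Within a distance of 0.5 there were 16 probes.

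GAPDH was close to a set of unnamed probes. Its 3 nearest were E017F6 (0.08), E016E11 (0.12) and E017A10 (0.19). The 8 nearest lay within 0.29, on plates E017 (4 probes), E016 (3) and E002 (1). After induction their log2 ratios were between 0.24 and 0.62 in K59 and between 0.09 and 0.14 in C15, where GAPDH was just above them at 0.18. With β-Glc Y they were between -1.10 and -0.89 in K59 and between -1.52 and -1.26 in C15. The d0 comparison had no part in the distance, and there the 8 probes had log2 ratios between -0.14 and -0.04, against -0.07 for GAPDH. By contrast, the 6 of the 8 nearest probes of myo-inositol-1-phosphate synthase with a d0 value ranged between -0.51 and 0.46. The table used here does not say whether the 8 probes near GAPDH are clones of one transcript. The nearest named genes were quinone reductase (E017C3, 0.65), remorin (N104B1, a plasma membrane protein, 0.67) and an amino acid permease (E002B7, 0.69).

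**Figure D4:**
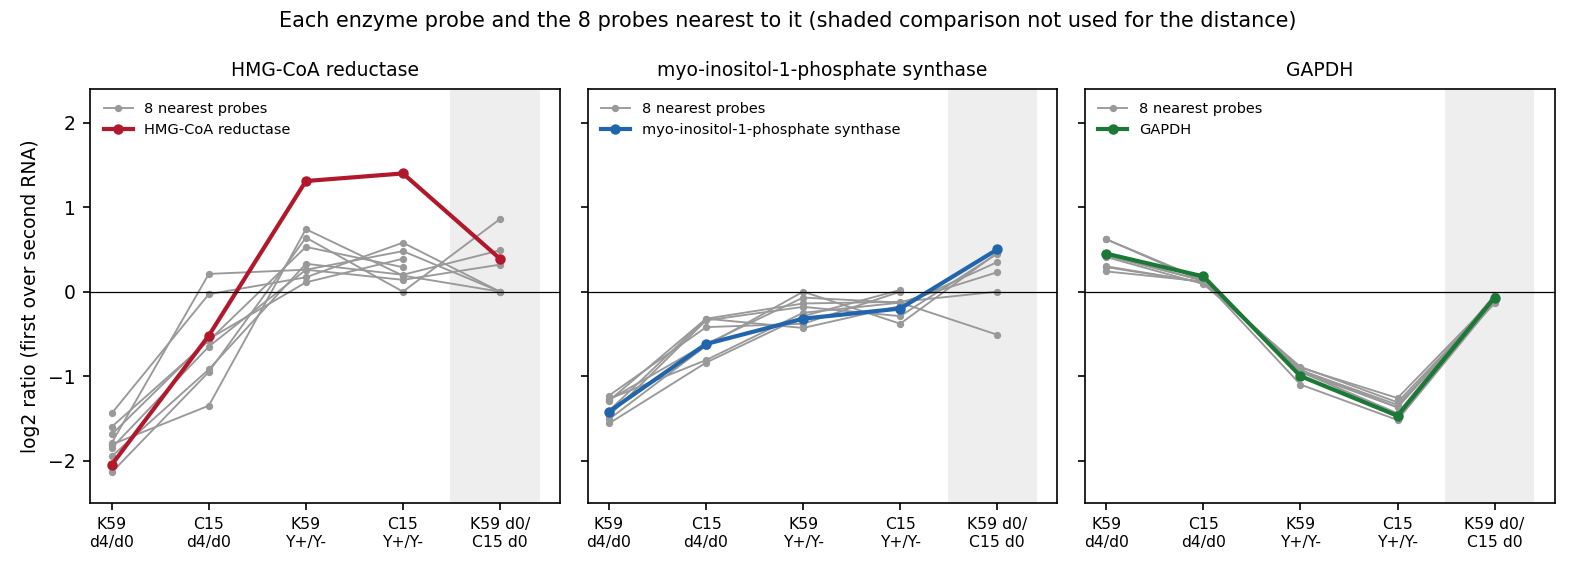
Log2 ratio (y axis, first over second RNA) of each enzyme (coloured) and of its 8 nearest probes (grey) over the comparisons (x axis); lines join the values of 1 probe, and the shaded d0 comparison was not used for the distance. The probes around GAPDH lie close to it in all 5 comparisons, slightly below it in induced C15 (0.09 to 0.14, against 0.18 for GAPDH), whereas none of the 8 probes nearest to HMG-CoA reductase comes near its β-Glc Y values of 1.31 and 1.40.

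Another 19 probes of the study's annotation encode enzymes or carriers that were grouped as carbon metabolism, respiration and biosynthesis. The study selected these genes on the same samples, as regulated by induction. Its methods filter at the threshold used here. The clone named NADH-cytochrome b5 reductase, with 0.93 in K59 and 0.05 in C15, does not reach it as deposited. That most pass in K59 was thus largely set by this selection. The counts of the 19 are not independent evidence of a response or of its direction. In K59 d4 vs. K59 d0, where 17.3% of all probes were at or above 1 and 23.4% at or below -1, 11 of the 19 passed upwards and 7 downwards. Their median was 1.09, beside 0.10 over all probes. In C15, 2 passed upwards (1.54% of all probes) and 3 downwards (8.3%), with a median of 0.20 beside 0.06.

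Of the 7 genes of carbon metabolism, 5 were at or above 1 in induced K59. L-lactate dehydrogenase (E017E2), which regenerates NAD+ when respiration is short, had 2.03 in K59 and 1.14 in C15. ATP citrate lyase (N104B10), which makes the cytosolic acetyl-CoA that the mevalonate pathway uses, had 1.90 in K59 and 0.65 in C15. In induced K59 ATP citrate lyase was thus above the threshold where HMG-CoA reductase was at -2.05. With β-Glc Y the signs were the other way round. ATP citrate lyase had -0.91 in K59 and -1.39 in C15, against 1.31 and 1.40 for HMG-CoA reductase. Each is a single value, and a link between these genes was not tested.

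The identity of the clones E006E2 and N101C1, both named malate dehydrogenase, is uncertain, since the annotation gives them and the clone named NADH-cytochrome b5 reductase (E006G1) the same closest locus, AT1G79750. After induction, clone E006E2 had 1.09 in K59 and 0.26 in C15, whereas clone N101C1 was at -4.35 for K59 and -2.03 for C15. Acyl-CoA oxidase (E009B5) of fatty acid breakdown and the glycerol-3-phosphate transporter (E006E10) had 1.31 and 1.06 in K59, with 0.60 and 0.46 in C15.

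Of the 3 genes of respiration, ubiquinol-cytochrome c reductase (A025A12) had 1.09 and the voltage-dependent anion channel of the outer mitochondrial membrane (E010D10) 1.78 in induced K59, against 0.42 and 1.16 in C15. The clone named NADH-cytochrome b5 reductase, whose identity is equally uncertain, stayed within the threshold, at 0.93 in K59 and 0.05 for C15. The anion channel was on the lower side in the β-Glc Y experiment (-0.75 in K59 and -0.92 in C15).

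Of the 9 genes of the biosynthesis list, 4 were at or above 1 in induced K59 and 5 at or below -1. Phenylalanine ammonia-lyase (PAL, E003G7), the entry to phenylpropanoids, had -1.77 in K59 and -0.98 in C15. Dihydroflavonol reductase (E001H2), of anthocyanin synthesis, had -3.50 and -2.25. ACC oxidase (N104E3), which makes ethylene, had -2.71 in K59 and -1.18 in C15, and S-adenosylmethionine synthetase had -1.95 and -0.92. On the other side stood ZOG1 (E011A2, 1.61 in K59 and 0.40 in C15), isoflavone reductase (E011H3, 1.56 and 0.16), ILV5 of branched-chain amino acid synthesis (E016F3, 1.36 and -0.37) and polyphenol oxidase (E017A6, 1.23 and 0.43). Cyanate lyase (E005H8), which breaks cyanate down and is thus not an enzyme of biosynthesis, had -1.62 in K59 but 0.20 in C15. Without it, 4 of the list were at or below -1 in K59.

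In the β-Glc Y experiment, none of the 17 listed genes with a K59 value passed the threshold, and 1 of 19 did in C15, ATP citrate lyase. Such low counts were near the shares over all probes, 0.583% at or above 1 and 2% at or below -1 in K59, with 1.03% and 3.81% in C15. The listed genes ranged between -0.91 and 0.45 in K59 and between -1.39 and 0.27 in C15. HMG-CoA reductase was above these ranges. GAPDH (-1.0 and -1.47) was just below their lower end, which in both genotypes was ATP citrate lyase. The study listed the 19 genes for their induction values, but it counts HMG-CoA reductase and GAPDH among the genes affected by β-Glc Y. This contrast was therefore partly set by the selection.

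Levels cannot be read from ratios, so the leaf origin of the RNA could not be checked by the level of leaf genes. All 6 probes fixed as markers of photosynthetic cells were below 0 after induction. At or below -1 were 5 of them in K59 (23.4% of all probes) and 4 in C15 (8.3% of all probes). The study selected these genes, too, on the same samples, so the counts are not independent evidence of a decrease. The d4 explants were also kept in the dark, and the part of darkness was not tested. The 6 probes ranged between -5.50 and -0.97 in K59 and between -4.37 and -0.34 in C15, with the RuBisCO small subunit probes the lowest. With β-Glc Y they ranged between -0.26 and 0.27 in K59 and between -0.20 and 0.48 in C15. The part of these cells in the induction values of HMG-CoA reductase and myo-inositol-1-phosphate synthase was not tested.

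**Figure D5:**
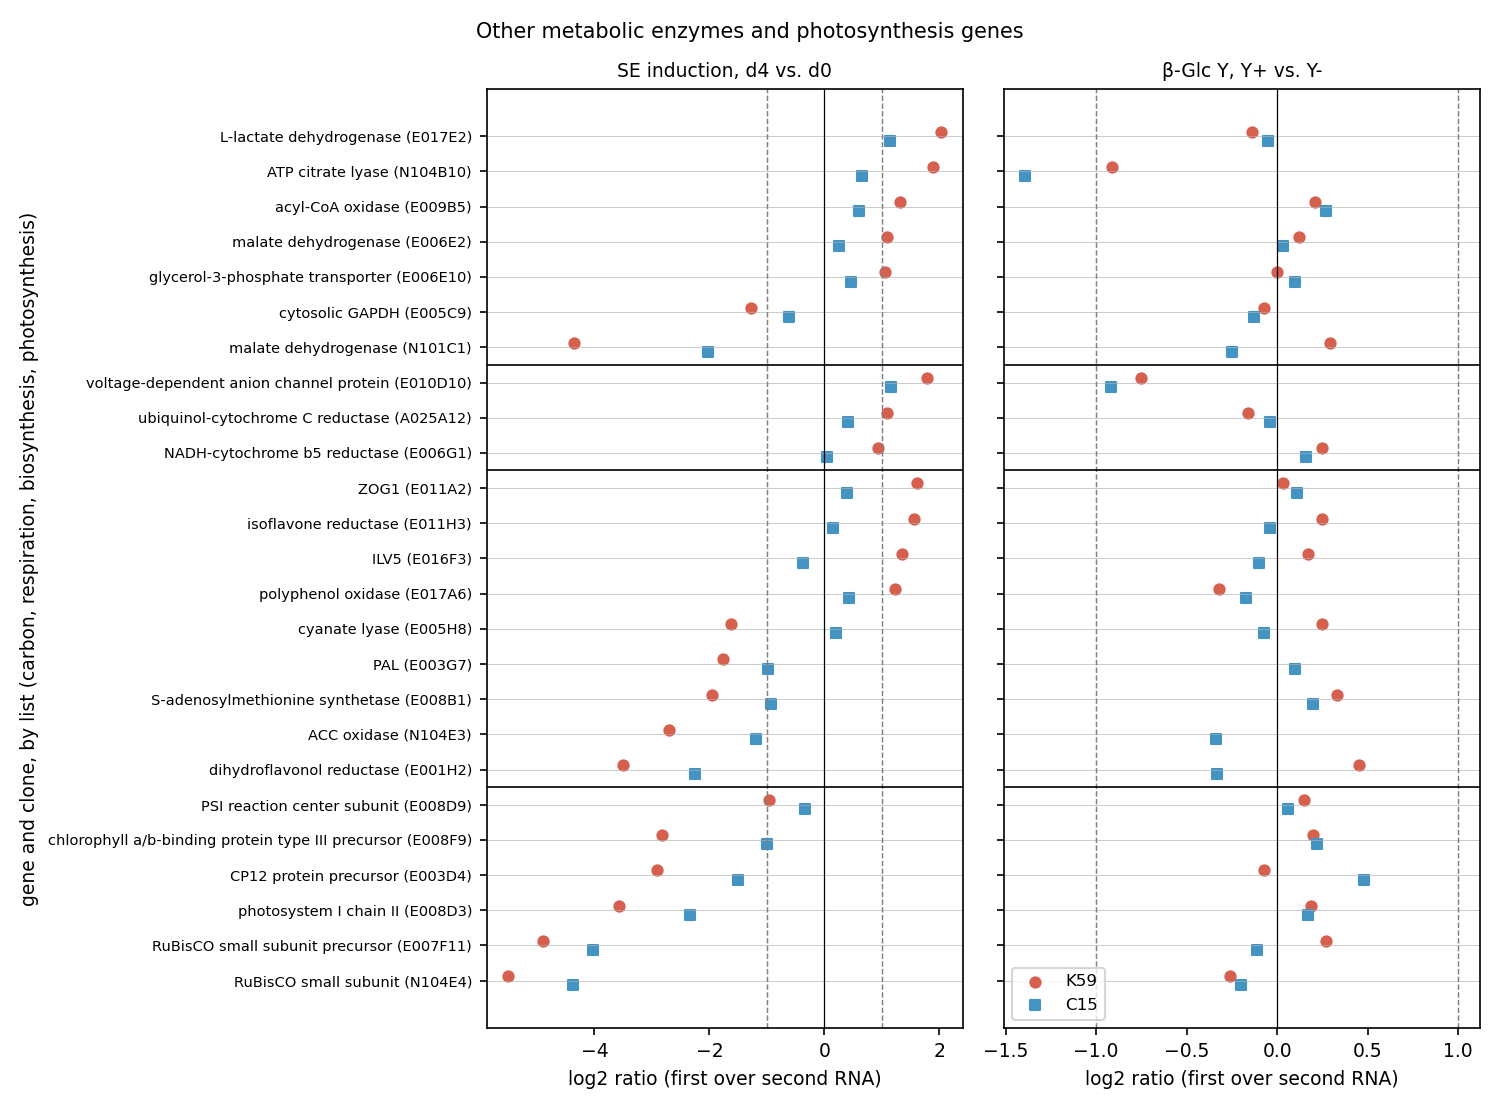
Log2 ratio (x axis, first over second RNA) of the 19 other metabolic genes and the 6 photosynthesis genes (y axis, with clone names, lists separated by lines) in K59 (circles) and C15 (squares) for SE induction (left) and β-Glc Y (right); dashed lines mark 1 and -1. After induction 11 of the 19 metabolic genes, which the study selected on the same samples, are at or above 1 in K59. With β-Glc Y only ATP citrate lyase is past -1, at -1.39 in C15.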

How the data were processed

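Each deposited value is a log2 ratio. The authors subtracted background from the median spot intensities of 2-colour arrays and dropped artefactual, saturated and weak spots. Disagreement between dye-swapped slides led to the loss of a probe, so some missing values come from this filter. Ratios were centred within print-tip groups after a slide-wide lowess, and a value is therefore relative to the bulk of the probes on its slide. How the hybridizations were combined is not given in the sources used here, single hybridizations were not analysed here, and spot intensities and depth per value are unknown. The FDR and SAM steps of the methods need them and were not repeated. Direction follows the labels.

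Values were counted against a log2 ratio of 1 or -1, ranked among all probes, subtracted between genotypes, summed within a genotype and compared by Euclidean distance. No test was possible with 1 value per probe and comparison. Counting, ranking, distances and plate centring were tested on simulated data of 2112 probes, where 8 of 8 planted quantities were recovered. The genes named are the 3 enzymes, all genes of the lists, the 3 nearest probes and 3 nearest named genes of each enzyme, and rank neighbours. The 8 nearest probes of each enzyme, the clones near GAPDH among them, were summarised after their values were seen. The members and lists were chosen with earlier results of these data known. Names come from the study's annotation of 135 clones, all of which match a probe. The computations ran in Python 3.11.15 (numpy 2.4.6, pandas 2.3.3, matplotlib 3.10.9).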

Additional observations from a re-analysis of the deposited data

How the results depend on the processing

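Single hybridizations were not analysed, so no replicate could be left out. No paired analysis was possible because each comparison has 1 value per probe. Of 63 values of the 3 enzymes under other settings, 54 kept their sign and their side of the threshold. At a threshold of 1.5, HMG-CoA reductase with β-Glc Y (1.31 in K59 and 1.40 in C15), myo-inositol-1-phosphate synthase in induced K59 (-1.42) and GAPDH with β-Glc Y (-1.0 in K59 and -1.47 in C15) were no longer past it. Subtracting the plate median brought GAPDH to -0.97 in K59 with β-Glc Y, short of the threshold, and the K59 minus C15 difference of the synthase after induction to -1.41. With the d0 sign turned, HMG-CoA reductase stood at -0.39, the synthase at -0.50, GAPDH at 0.07 and the implied K59 d4 over C15 d4 value of the synthase, given below, at -1.30. Divided by the spread of each comparison, the K59 minus C15 difference after induction was -0.019 for HMG-CoA reductase, 0.86 for the synthase and -0.22 for GAPDH, the last pair reversed in sign, and with β-Glc Y it was -0.85, -0.48 and 2.59. The nearest 3 probes then kept 0 members for HMG-CoA reductase and 1 for the synthase, which also kept 1 when d0 was included. At 1.5, 5 of the listed metabolic genes passed upwards in induced K59, 0 in C15, and 0 downwards with β-Glc Y in C15. Of 30 ranks recomputed, 11 moved by over 1.5 times. The cause of these changes was not tested.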

Other observations

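The following values were computed after the data were seen. Adding the d0 ratio to the difference of the induction ratios gives the signal of K59 d4 over C15 d4 explants, if the d0 RNA was the same throughout. HMG-CoA reductase then had a log2 ratio of -1.14, or 2.2-fold less signal in K59 d4 than in C15 d4, with 49 of 486 probes lower. With the d0 sign turned it was -1.92. For myo-inositol-1-phosphate synthase the value was -0.30 as labelled and -1.30 with the sign turned, so that its side of the threshold depends on the unsettled direction. GAPDH had 0.20 as labelled and 0.34 with the sign turned. In the d0 comparison an exact 0.00 is listed for 57 probes, among them 7 of the 28 enzyme, carrier and photosynthesis probes described above, but not for HMG-CoA reductase, myo-inositol-1-phosphate synthase or GAPDH.

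With β-Glc Y, 54 of the 1044 probes measured in both genotypes lay at or below -0.75 in both, and 13 lay at or above 0.75 in both. GAPDH, ATP citrate lyase and the voltage-dependent anion channel are among the 54, and HMG-CoA reductase is among the 13.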
